A study of Homo sapiens with 4 samples.

Results

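Solute carriers are the membrane proteins that move nutrients, ions, metabolites and drugs across the plasma membrane and the membranes of organelles. The genes described here are those with a symbol made of SLC, a family number, the letter A and a member number, and they were selected on measured RPKM, with 1 or more in at least 1 of 4 leukemia cell lines. RPKM is the reads on a gene scaled to its length and to the size of the library, so levels of different genes can be set side by side. The deposited tables list 330 such symbols, of which 183 were selected, among 12976 measured genes (those meeting the same threshold) and 21865 symbols in all. The 183 genes belonged to 43 of the 47 families in the tables. Because the RPKM chose the members, the number of members in a line and their levels are a description and carry no test.

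RNA was sequenced from KG1a, HL60, MonoMac-1 and THP-1, human acute myeloid leukemia lines that were all grown untreated, as far as the labels say, in serum-supplemented RPMI/Opti-Media medium with penicillin and streptomycin. HL60 is a promyelocytic to myeloblastic line, KG1a an immature one. MonoMac-1 and THP-1 are monocytic and hold the fusion gene MLL-AF9, absent from the first pair, which is general knowledge and not a label. Each line descends from the leukemia of a single patient and was represented by 1 library, and the THP-1 title ends in unexplained letters ("tr"), so whether that culture was treated is not known. Fusion and monocytic lineage coincide in these lines and cannot be told apart.

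Families are defined by sequence, and members of a family often share a type of cargo. Uniporters such as the glucose carriers let a solute run down its gradient, symporters and exchangers couple it to sodium, protons or a second solute, and the SLC25 family sits in the inner mitochondrial membrane and links the cytosol to the matrix. Leukemic blasts are known to rely on carriers for glutamine, leucine and nucleosides, and several carriers admit antileukemic drugs, among them SLC29A1 for cytarabine and SLC19A1 for methotrexate. RNA levels say nothing of the amount of protein, its location or its transport rate.

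Library depth ran from 6.04 gigabases on genes in THP-1 to 13.6 in MonoMac-1. MPO, a granule enzyme, was at 3.097 RPKM in KG1a, 4610.2 in HL60, 95.2 in MonoMac-1 and 4.78 in THP-1, and CD34, a progenitor antigen, at 494 RPKM in KG1a, 12.9 in HL60, 0.253 in MonoMac-1 and 0.0205 in THP-1. LYZ, lysozyme of monocytes, was at 1.13 RPKM in KG1a, 11.99 in HL60, 4837 in MonoMac-1 and 510.3 in THP-1; CD68 and IRF8, also monocytic, were likewise higher in both MLL-AF9 lines. ELANE, a granule gene like MPO, went against that order, at 0.0355 RPKM in KG1a, 76.6 in HL60, 1313 in MonoMac-1 and 1042 in THP-1. Of 12 markers of epithelial, stromal, endothelial, hepatic, erythroid and lymphoid cells 8 stayed under 1 RPKM in every line, and the other 4 peaked in different lines: CD3E at 14.1 in KG1a, HBB at 15.2 in THP-1, CD79A at 6.36 in HL60 and KRT8 at 1.54 in MonoMac-1. The part of such RNA in the results was not tested. HL60 was also set against KG1a over 19 genes at 50 RPKM or more in KG1a and under 0.5 in both MLL-AF9 lines. It held a median of 2.71% of the KG1a level, with quartiles of 2.59% and 3.45%. This choice of genes keeps both MLL-AF9 lines low, so only HL60 was free to show a share. No like share was computed for another line. Over the 19 the lowest share was 2.40% and the highest 112.6%, so the share was not uniform. CD34 is itself 1 of these 19 genes. For several members high in KG1a and low in HL60 the HL60 share of the KG1a level is given below. The 4-fold counts of members were the same with 2.71% of the KG1a value taken off HL60, a step that can only widen a margin of KG1a over HL60.

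As a group the solute carriers were about as widely expressed as other genes. In all 4 lines 129 members reached 1 RPKM (70.5%, against 70.8% of measured genes), and 19 did so in 1 line. Between 147 (KG1a) and 161 (THP-1) members reached 1 RPKM in a line, and between 70 (THP-1) and 88 (MonoMac-1) reached 10. The median member had 7.55 RPKM in KG1a, 7.26 in HL60, 9.28 in MonoMac-1 and 6.50 in THP-1, beside medians of 8.85, 7.74, 8.96 and 8.37 over measured genes. Summed over members the RPKM came to 3281 in KG1a, 3634 in HL60, 3034 in MonoMac-1 and 2862 in THP-1, which was 0.959%, 0.882%, 0.775% and 0.751% of the RPKM of all symbols. The 10 members with the highest mean level held from 31.5% of that sum in MonoMac-1 and 35.3% in THP-1 to 39.7% in KG1a and 44.3% in HL60. They were SLC25A5, SLC25A3, SLC43A3, SLC16A3, SLC1A5, SLC25A1, SLC25A39, SLC39A7, SLC3A2 and SLC7A5, with mean levels from 57.2 to 321 RPKM.

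The threshold fell inside a continuous range of levels. Just inside it lay SLC44A5 with a highest value of 1.04 RPKM, and SLC2A10 and SLC1A1 with 1.08 each. Just outside lay SLC11A1, the NRAMP1 metal transporter of phagosomes, which was at 0.0644 RPKM in KG1a, 0.238 in HL60, 0.907 in MonoMac-1 and 0.9997 in THP-1, followed by SLC7A8 at 0.989 and SLC30A4 at 0.967. SLC25A6, an ADP/ATP carrier with copies on X and Y, was listed at 0 in every line and was not assessed.

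Start sites are shown for 3 members: the most abundant one, SLC25A5, and 2 that were lowest in KG1a, SLC22A15 and SLC2A5. The 250 bases before the RefSeq start (GRCh38.p14) are printed 5′ to 3′ on the gene's strand, with each CG dinucleotide in capitals. SLC25A5 lies at chrX:119468194-119468443, plus strand, SLC22A15 at chr1:115976263-115976512, plus strand, and SLC2A5 at chr1:9069636-9069885, minus strand.
SLC25A5: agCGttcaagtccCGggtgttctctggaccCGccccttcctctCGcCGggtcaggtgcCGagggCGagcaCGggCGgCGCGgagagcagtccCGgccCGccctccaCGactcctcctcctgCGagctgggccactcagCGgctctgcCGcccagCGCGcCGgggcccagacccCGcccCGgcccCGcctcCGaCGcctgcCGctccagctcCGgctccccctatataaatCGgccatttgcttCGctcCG
SLC22A15: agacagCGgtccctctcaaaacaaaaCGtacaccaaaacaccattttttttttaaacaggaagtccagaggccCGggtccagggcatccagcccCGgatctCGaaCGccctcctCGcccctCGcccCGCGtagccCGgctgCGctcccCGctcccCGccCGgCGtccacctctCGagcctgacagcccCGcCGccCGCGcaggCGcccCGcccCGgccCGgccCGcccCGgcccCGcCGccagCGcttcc
SLC2A5: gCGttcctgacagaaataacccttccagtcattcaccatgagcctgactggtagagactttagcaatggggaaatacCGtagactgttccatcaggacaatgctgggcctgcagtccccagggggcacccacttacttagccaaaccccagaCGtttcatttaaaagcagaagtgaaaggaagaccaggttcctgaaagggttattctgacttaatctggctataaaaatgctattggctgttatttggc
Over the RefSeq window of 300 bases, from 250 before to 50 after the start, SLC25A5 had 36 CG dinucleotides, SLC22A15 had 37 and SLC2A5 had 5. SLC22A15 and SLC2A5 thus shared their lowest line and differed in this sequence feature. A promoter was matched for 149 of the 183 members; their median was 30 CG dinucleotides and 91.9% had 10 or more. The 10069 matched promoters of measured genes had a median of 28 and 92.0% with 10 or more, and over all 27303 promoters of the table the values were 16 and 58.5%. Fewer than 80% of the 12976 measured genes were matched, so the comparison with them is void and no difference is read from these shares or from those of the motifs. Members at least 4-fold apart between lines, by the rules given below, had a median of 24 (18 matched), and the other members 30 (131 matched). The letters CACGTG, an E-box that reads the same on both strands, occurred in 14.8% of member windows, 10.4% of windows of measured genes and 7.54% of all windows. TGATGNAA, the composite element that ATF4 binds with a partner factor, on either strand, occurred in 4.70%, 1.35% and 3.47%. These are matches of letters and not binding sites.

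**Figure D1:**
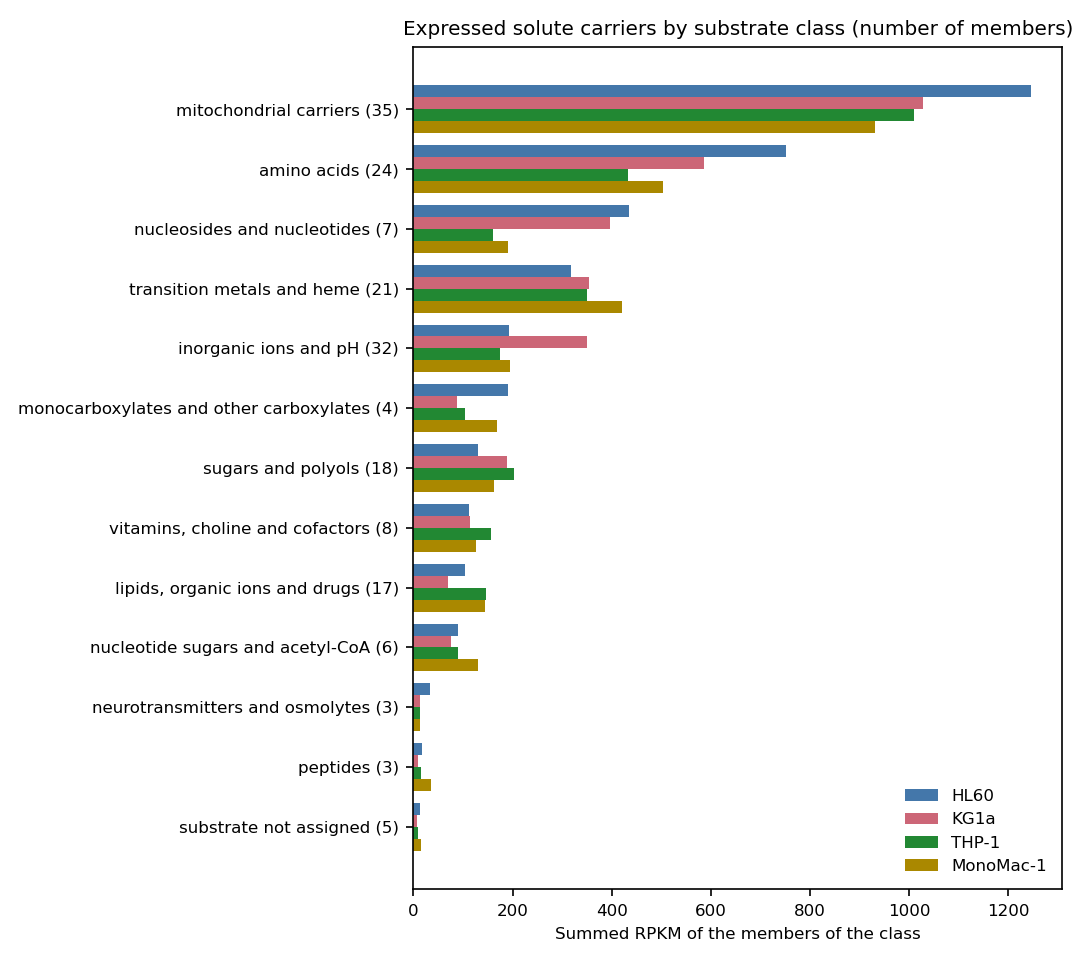
Summed RPKM (horizontal axis) of the members of each substrate class in the 4 lines, with 1 library per bar and the number of members in brackets. Mitochondrial carriers and amino acid carriers had the largest sums in every line, and HL60 had the tallest bar of both; the nucleoside class was at 397 RPKM in KG1a and 436 in HL60, but at 190.5 in MonoMac-1 and 159.9 in THP-1.

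Mitochondrial carriers were the largest class and, after the metal carriers, the most even. Of 45 SLC25 symbols 35 were members and 33 of them reached 1 RPKM in all 4 lines, with a median range over the lines of 0.99 on the log2(RPKM + 1) scale, beside 1.35 over all members and 1.18 over all measured genes. The class summed to 1027 RPKM in KG1a, 1246 in HL60, 931 in MonoMac-1 and 1009.9 in THP-1. SLC25A5, which swaps ADP for ATP across the inner membrane (chrX:118603624-118605359, hg19), was at 349.9 RPKM in KG1a, 455 in HL60, 245 in MonoMac-1 and 236 in THP-1; HL60 and KG1a were both above the MLL-AF9 lines. Its muscle-type relative SLC25A4 was at 0.908 RPKM in KG1a, 2.395 in HL60, 0.391 in MonoMac-1 and 1.23 in THP-1, and the ratio of SLC25A5 to SLC25A4 was 385 in KG1a, 190.1 in HL60, 628 in MonoMac-1 and 192 in THP-1. SLC25A3, which brings phosphate into the matrix, was at 175 RPKM in KG1a, 253 in HL60, 88.6 in MonoMac-1 and 254 in THP-1, with MonoMac-1 lowest. SLC25A1, the citrate exporter that feeds fatty acid synthesis, was at 39.0 RPKM in KG1a, 63.5 in HL60, 125 in MonoMac-1 and 101 in THP-1, and its 2 highest values were those of the MLL-AF9 lines.

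Most other SLC25 members varied little between lines. SLC25A39, which imports glutathione, was at 85.8 RPKM in KG1a, 80.01 in HL60, 58.2 in MonoMac-1 and 50.2 in THP-1. SLC25A37, the mitoferrin that supplies iron for heme, was at 15.02 RPKM in KG1a, 15.4 in HL60, 24.8 in MonoMac-1 and 16.9 in THP-1, and SLC25A13, the aspartate and glutamate carrier of the malate shuttle, at 7.55 RPKM in KG1a, 13.5 in HL60, 9.47 in MonoMac-1 and 8.52 in THP-1; neither differed as much as 2-fold between any pair of lines. SLC25A46, an outer-membrane member of the family, was at 12.5 RPKM in KG1a, 12.04 in HL60, 26.1 in MonoMac-1 and 22.7 in THP-1, about level within each pair of lines and higher in the MLL-AF9 lines. All 12 symbols for nucleotide, cofactor and metal carriers were members and all 12 reached 1 RPKM in every line. A single SLC25 member met a 4-fold rule, SLC25A45, whose substrate was left unassigned here, at 12.1 RPKM in KG1a, 1.43 in HL60, 1.11 in MonoMac-1 and 1.54 in THP-1. Its KG1a value was 7.84 times the highest of the other 3, and HL60 held 11.9% of KG1a. SLC25A42, which carries coenzyme A and adenine nucleotides, also had its highest value in KG1a, at 11.5 RPKM in KG1a, 1.21 in HL60, 5.49 in MonoMac-1 and 2.94 in THP-1, with HL60 at 10.5% of KG1a.

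Amino acid carriers had 24 members of 53 symbols, with sums of 587 RPKM in KG1a, 752 in HL60, 504 in MonoMac-1 and 432 in THP-1. HL60 was the highest line for 12 of the 24 and KG1a for 1, where over measured genes HL60 was highest for 23.1% and KG1a for 31%. SLC1A5, the exchanger that takes up glutamine, was at 135 RPKM in KG1a, 134 in HL60, 42.8 in MonoMac-1 and 69.1 in THP-1; HL60 and KG1a were level and each above both MLL-AF9 lines. SLC7A5, the light chain that carries leucine and other large neutral amino acids, was at 64.4 RPKM in KG1a, 84.1 in HL60, 53.3 in MonoMac-1 and 26.97 in THP-1, and SLC3A2, the heavy chain it needs at the surface, at 64.2 RPKM in KG1a, 78.1 in HL60, 54.5 in MonoMac-1 and 38.5 in THP-1. The ratio of light to heavy chain was 1.003 in KG1a, 1.08 in HL60, 0.979 in MonoMac-1 and 0.701 in THP-1, lowest in THP-1. SLC1A4, a second neutral exchanger, was at 9.75 RPKM in KG1a, 28.6 in HL60, 35.7 in MonoMac-1 and 20.9 in THP-1, and SLC7A1, the main carrier for arginine and lysine, at 37.6 RPKM in KG1a, 53.1 in HL60, 38.3 in MonoMac-1 and 27.3 in THP-1. HL60 was the highest line for SLC7A5, SLC3A2 and SLC7A1, and MonoMac-1 for SLC1A4.

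The remaining members of the class followed no single order. SLC7A11, which imports cystine for glutathione, was at 6.93 RPKM in KG1a, 7.52 in HL60, 5.86 in MonoMac-1 and 3.62 in THP-1, lowest in THP-1. SLC38A2, a sodium-coupled carrier of small neutral amino acids, had the smallest range of the class, at 55.6 RPKM in KG1a, 51.9 in HL60, 50.2 in MonoMac-1 and 56.9 in THP-1. Its close relative SLC38A1 (chr12:46576841-46663208, hg19) was at 41.5 RPKM in KG1a, 42.4 in HL60, 0.0872 in MonoMac-1 and 33.8 in THP-1. The lowest of the other lines was 387 times the MonoMac-1 value, which rests on 58.2 fragment equivalents of 200 sequenced bases and has a counting interval of 0.0663 to 0.113 RPKM (95%, Poisson). On the log2(RPKM + 1) scale it was the only member lowest in MonoMac-1 by 4-fold or more, a rule that 0.185% of measured genes met. In plain RPKM the same held for SLC12A7, whose lowest other line was 78.8 times MonoMac-1. The share of measured genes past 4-fold in plain RPKM was not computed, here or for the rules below. SLC38A5, another glutamine carrier, was at 58.6 RPKM in KG1a, 85.5 in HL60, 39.99 in MonoMac-1 and 19.3 in THP-1, and there MonoMac-1 lay inside the range of the other lines.

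The light chains SLC7A6 and SLC7A7, which exchange cationic for neutral amino acids, differed in their range. SLC7A6 was at 11.9 RPKM in KG1a, 17.6 in HL60, 10.9 in MonoMac-1 and 11.1 in THP-1, under 2-fold apart, whereas SLC7A7, its counterpart known from gut, kidney and macrophages, was at 0.08499 RPKM in KG1a, 2.11 in HL60, 6.98 in MonoMac-1 and 4.98 in THP-1, with KG1a far under the rest. SLC43A2, a uniporter for branched-chain and aromatic amino acids, was likewise lowest in KG1a, at 0.137 RPKM in KG1a, 2.13 in HL60, 8.096 in MonoMac-1 and 3.24 in THP-1. SLC7A2, a cationic amino acid carrier linked to arginine supply in macrophages, was at 0.00209 RPKM in KG1a, 15.1 in HL60, 4.35 in MonoMac-1 and 1.58 in THP-1, highest in HL60 and lowest in KG1a. SLC1A3, a glutamate carrier best known from astrocytes (chr5:36606457-36688436, hg19), was at 0.0115 RPKM in KG1a, 0.309 in HL60, 17.6 in MonoMac-1 and 5.55 in THP-1; both MLL-AF9 lines were above both other lines. SLC6A9, the glycine carrier, was at 0.392 RPKM in KG1a, 4.61 in HL60, 0.0628 in MonoMac-1 and 0.238 in THP-1, which made HL60 11.8 times the next line. The transcription factor ATF4, which is known to drive many amino acid carriers, was at 242 RPKM in KG1a, 686 in HL60, 190.3 in MonoMac-1 and 187 in THP-1, and its target MTHFD2 at 55.7 RPKM in KG1a, 189 in HL60, 44.99 in MonoMac-1 and 47.3 in THP-1. Both were highest in HL60, and their part in the order of the amino acid carriers was not tested.

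Sugar and polyol carriers had the widest range between lines, with a class median of 2.43 over 18 members, and 6 of the 18 met a 4-fold rule, beside 9.68% of measured genes. The SLC2 family of hexose carriers summed to 56.5 RPKM in KG1a, 58.7 in HL60, 68.7 in MonoMac-1 and 156 in THP-1, and the lines filled this sum with different members. SLC2A1, the glucose carrier of most dividing cells, was at 26.8 RPKM in KG1a, 19.6 in HL60, 9.38 in MonoMac-1 and 66.03 in THP-1. SLC2A3, a high-affinity glucose carrier (chr12:8071824-8088892, hg19), was at 21.3 RPKM in KG1a, 21.8 in HL60, 3.02 in MonoMac-1 and 0.683 in THP-1, with HL60 and KG1a nearly equal and both MLL-AF9 lines far lower. The lower of HL60 and KG1a was 7.07 times the MonoMac-1 value. On the log2(RPKM + 1) scale SLC2A3 was the only member lower in both MLL-AF9 lines by 4-fold or more, as were 0.331% of measured genes. In plain RPKM SLC44A2 (ratio 5.62) and SLC5A5, SLC5A12 and SLC8A3, whose HL60 values are treated below, passed as well. The ratio of SLC2A1 to SLC2A3 was 1.25 in KG1a, 0.897 in HL60, 3.11 in MonoMac-1 and 96.7 in THP-1. SLC2A14, a near-identical copy of SLC2A3, was at 0.0472 RPKM in KG1a, 0.0505 in HL60, 2.09 in MonoMac-1 and 0.675 in THP-1, and reads of the 2 copies may be split between them in an unknown way.

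**Figure D2:**
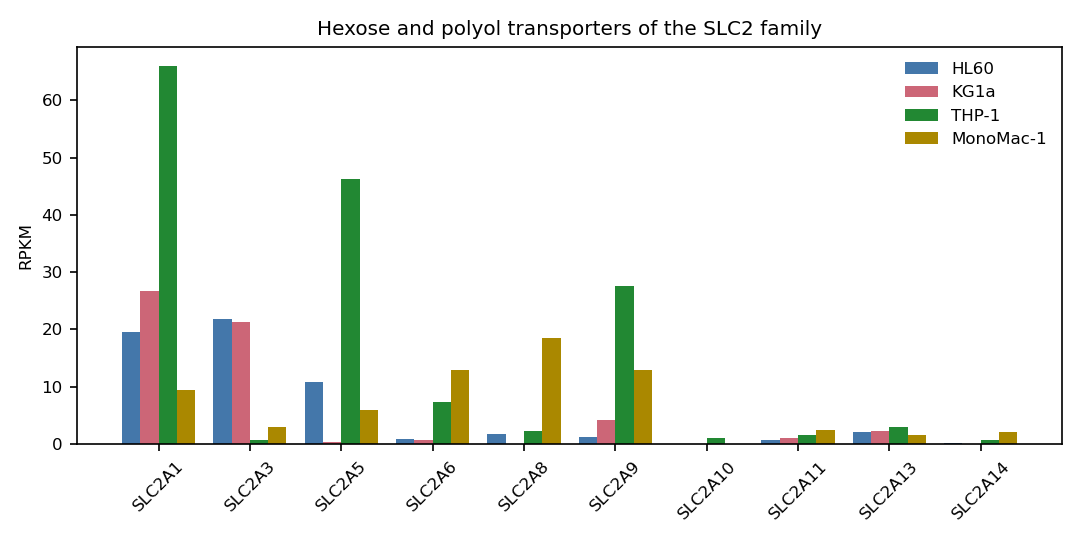
RPKM (vertical axis) of the 10 SLC2 members in each line, with 1 library per bar. SLC2A1 and SLC2A3 were the tallest in HL60 and KG1a, SLC2A1 and SLC2A5 in THP-1 (66.0 and 46.3 RPKM), and SLC2A8 in MonoMac-1 (18.5 RPKM).

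SLC2A5, the fructose carrier (chr1:9097005-9148510, hg19), met 2 rules at once, lowest in KG1a and highest in THP-1. It was at 0.243 RPKM in KG1a, 10.7 in HL60, 5.95 in MonoMac-1 and 46.3 in THP-1, and made up 29.6% of the SLC2 sum in THP-1 and 0.429% in KG1a. SLC2A6, a hexose carrier of lysosomes, was at 0.714 RPKM in KG1a, 0.906 in HL60, 12.9 in MonoMac-1 and 7.298 in THP-1, higher in both MLL-AF9 lines, and its lower MLL-AF9 value was 8.05 times the HL60 value. SLC2A8, an intracellular glucose carrier, was listed at 0 in KG1a and was at 1.66 RPKM in HL60, 18.5 in MonoMac-1 and 2.26 in THP-1, and MonoMac-1 was 8.21 times THP-1. SLC2A9, which carries urate, had its 2 highest values in the MLL-AF9 lines, at 4.17 RPKM in KG1a, 1.18 in HL60, 12.9 in MonoMac-1 and 27.6 in THP-1. In MonoMac-1 SLC2A8 alone made up 26.95% of the family sum and SLC2A1 13.6%, against 47.3% for SLC2A1 in KG1a.

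Among the other sugar and polyol carriers, SLC5A3, which takes up the osmolyte myo-inositol, was at 3.89 RPKM in KG1a, 3.43 in HL60, 24.5 in MonoMac-1 and 3.62 in THP-1. Its span overlaps that of MRPS6, a mitochondrial ribosomal protein gene that was at 37.5 RPKM in KG1a, 29.3 in HL60, 110.4 in MonoMac-1 and 30.5 in THP-1, so reads of the 2 genes may be shared and the high MonoMac-1 value is uncertain. SLC37A1, a sugar-phosphate exchanger of the endoplasmic reticulum, was at 28.3 RPKM in KG1a, 3.44 in HL60, 4.23 in MonoMac-1 and 6.33 in THP-1, where KG1a was 4.48 times THP-1 and HL60 held 12.1% of KG1a. Its relative SLC37A4, which carries glucose-6-phosphate, was at 43.8 RPKM in KG1a, 27.0 in HL60, 15.1 in MonoMac-1 and 7.89 in THP-1. SLC37A2 was at 8.897 RPKM in KG1a, 0.479 in HL60, 7.79 in MonoMac-1 and 3.45 in THP-1, and the HL60 value equals 5.38% of that in KG1a.

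Monocarboxylate carriers export lactate with a proton. SLC16A3, the low-affinity lactate exporter of glycolytic cells, was at 43.2 RPKM in KG1a, 143 in HL60, 146 in MonoMac-1 and 74.1 in THP-1, and SLC16A1, its high-affinity relative, at 27.3 RPKM in KG1a, 42.4 in HL60, 20.2 in MonoMac-1 and 26.9 in THP-1. The ratio of SLC16A3 to SLC16A1 was 1.58 in KG1a, 3.37 in HL60, 7.22 in MonoMac-1 and 2.75 in THP-1, from lowest in KG1a to highest in MonoMac-1. BSG, the chaperone that brings both to the surface, was at 136.7 RPKM in KG1a, 152 in HL60, 203 in MonoMac-1 and 300.1 in THP-1. EMB, a second chaperone of the family, was at 17.3 RPKM in KG1a, 22.01 in HL60, 94.8 in MonoMac-1 and 199.6 in THP-1. Of 10 listed partner genes EMB alone was higher in both MLL-AF9 lines by 4-fold or more, a rule that 1.39% of measured genes met. SLC5A12, a sodium-coupled lactate carrier known from kidney and gut, was at 15.1 RPKM in KG1a, 0.396 in HL60, listed at 0 in MonoMac-1 and 0.00412 in THP-1, with the HL60 value at 2.62% of that in KG1a.

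Nucleoside and nucleotide carriers had 7 members of 9 symbols and sums of 397 RPKM in KG1a, 436 in HL60, 190.5 in MonoMac-1 and 159.9 in THP-1. SLC43A3, a carrier of purine bases, was the class's most abundant member, at 303 RPKM in KG1a, 251 in HL60, 62.3 in MonoMac-1 and 91.4 in THP-1; both MLL-AF9 lines were lower, and the lower of HL60 and KG1a was 2.75 times the higher MLL-AF9 value. SLC29A1, the equilibrative nucleoside carrier through which cytarabine enters cells, was at 34.3 RPKM in KG1a, 79.6 in HL60, 51.8 in MonoMac-1 and 41.5 in THP-1. SLC29A2, the second equilibrative carrier (chr11:66129992-66139291, hg19), was at 31.1 RPKM in KG1a, 46.4 in HL60, 24.3 in MonoMac-1 and 1.29 in THP-1, and the lowest of the other lines was 18.8 times THP-1. On the log2(RPKM + 1) scale it was the only member lowest in THP-1 by 4-fold or more, beside 0.216% of measured genes. In plain RPKM SLC2A3 (ratio 4.42) and SLC26A8 (ratio 4.36) passed as well. The ratio of SLC29A1 to SLC29A2 was 1.104 in KG1a, 1.71 in HL60, 2.13 in MonoMac-1 and 32.2 in THP-1, so the 2 carriers were nearest to each other in KG1a and farthest apart in THP-1.

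SLC29A3, a lysosomal nucleoside carrier, was at 4.62 RPKM in KG1a, 3.87 in HL60, 15.9 in MonoMac-1 and 3.35 in THP-1, highest in MonoMac-1. SLC29A4, which also carries monoamines, was at 0.101 RPKM in KG1a, 0.265 in HL60, 10.4 in MonoMac-1 and 2.76 in THP-1, with both MLL-AF9 lines above both others. SLC28A3, a sodium-driven nucleoside pump, was at 0.0592 RPKM in KG1a, 5.62 in HL60, 0.337 in MonoMac-1 and 0.0659 in THP-1, and HL60 was 16.7 times the next line. SLC17A9, which loads ATP into vesicles, was at 23.5 RPKM in KG1a, 48.5 in HL60, 25.4 in MonoMac-1 and 19.6 in THP-1.

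Carriers of lipids, organic ions and drugs had 17 members of 43 symbols. The class stood at a median difference, MLL-AF9 lines minus the other lines, of 0.68 on the log2(RPKM + 1) scale, against 0.02 over all measured genes, and both MLL-AF9 lines were above both others for 9 members and below for 1. Over measured genes those directions held for 22.1% and 19.6%, and over all 183 members for 48 (26.2%) and 44 (24%). SLC27A2, an enzyme that activates very long-chain fatty acids, went against the class, at 19.1 RPKM in KG1a, 43.02 in HL60, 10.8 in MonoMac-1 and 5.402 in THP-1. SLC27A3, of the same family, was at 1.28 RPKM in KG1a, 2.23 in HL60, 12.1 in MonoMac-1 and 12.9 in THP-1, and its lower MLL-AF9 value was 5.43 times the HL60 value. SLC22A4, which takes up ergothioneine, was at 1.48 RPKM in KG1a, 6.22 in HL60, 8.19 in MonoMac-1 and 6.57 in THP-1, with KG1a lowest. SLC22A16, a carnitine carrier that also admits doxorubicin, was at 0.576 RPKM in KG1a, 3.84 in HL60, 16.1 in MonoMac-1 and 28.3 in THP-1; both MLL-AF9 lines were higher.

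SLC22A15, a zwitterion carrier of the same family (chr1:116519119-116612675, hg19), was listed at 0 in KG1a and was at 8.47 RPKM in HL60, 16.4 in MonoMac-1 and 14.6 in THP-1. No sequenced base lay on it in KG1a, although the other 3 lines held 8.47 RPKM or more, and SLC2A8 was the only other member listed at 0 in KG1a. SLC10A4, a vesicle protein of the bile acid carrier family (chr4:48485360-48491541, hg19), was at 0.00387 RPKM in KG1a, 0.0767 in HL60, 0.0685 in MonoMac-1 and 12.2 in THP-1, so THP-1 was 159 times the next line. Among the organelle carriers of peptides, SLC15A4, which exports histidine and peptides from lysosomes, was at 6.98 RPKM in KG1a, 12.9 in HL60, 21.6 in MonoMac-1 and 7.84 in THP-1, and SLC15A3, of the same function, at 0.0843 RPKM in KG1a, 2.24 in HL60, 9.12 in MonoMac-1 and 4.15 in THP-1. Both were highest in MonoMac-1 and lowest in KG1a.

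Carriers of inorganic ions and of acid and base had 32 members, the second-largest class, of which 15 reached 1 RPKM in all 4 lines. KG1a was the highest line for 17 of the 32, a larger share than the 31% of measured genes with KG1a highest. It was also the lowest line for 11 of the 32, more than any other line. The class median was 2.96 RPKM in KG1a, 3.08 in HL60, 3.49 in MonoMac-1 and 3.95 in THP-1, so the class was not generally higher in KG1a. The class summed to 351 RPKM in KG1a, 192 in HL60, 194 in MonoMac-1 and 174 in THP-1. SLC20A1, the phosphate importer, was the most abundant, at 117 RPKM in KG1a, 37.3 in HL60, 28.4 in MonoMac-1 and 22.0 in THP-1, and KG1a was 3.13 times the next line. SLC8A3, a sodium and calcium exchanger known from brain and muscle (chr14:70510934-70655787, hg19), was at 51.2 RPKM in KG1a, 1.39 in HL60, 0.0123 in MonoMac-1 and listed at 0 in THP-1. The HL60 value is 2.71% of that in KG1a, the same as the median share above, and SLC8A3 is itself 1 of the 19 genes behind that median. SLC5A5, the iodide importer of the thyroid, was at 5.09 RPKM in KG1a, 0.1298 in HL60, 0.0108 in MonoMac-1 and listed at 0 in THP-1, with HL60 at 2.55% of KG1a. With the median share taken off, nothing of the HL60 value was left for SLC8A3, SLC5A5 or SLC5A12, for SLC8A3 by construction. The same was so for SLC24A3, with HL60 at 2.10% of KG1a, and for SLC4A4 and SLC44A5, also under the median share.

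**Figure D3:**
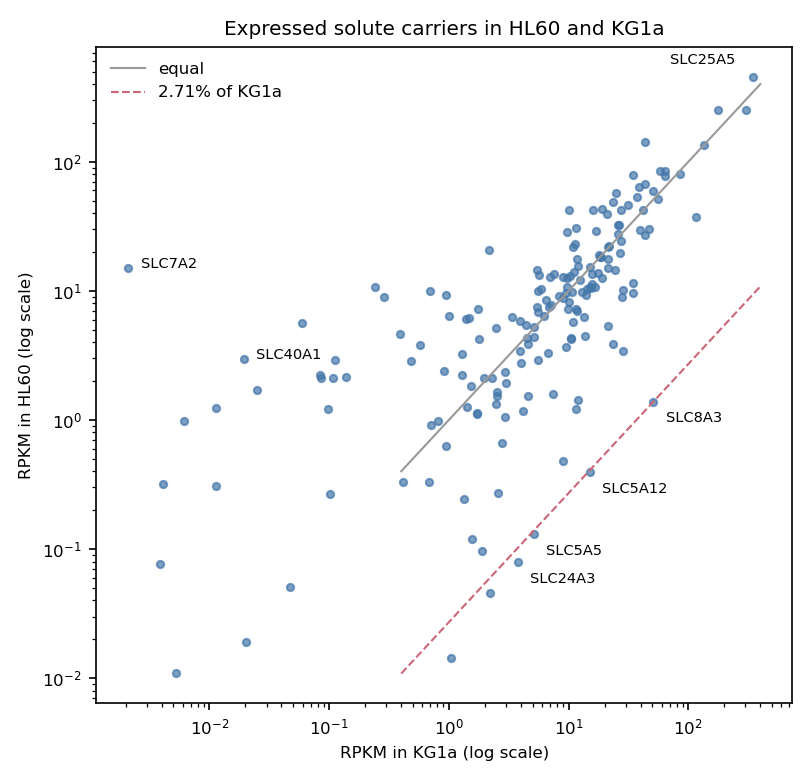
RPKM in HL60 (vertical axis) against RPKM in KG1a (horizontal axis), both on log scales, for members above 0 in both; each point is 1 gene with 1 library per line, the grey line marks equal values and the dashed line 2.71% of KG1a. SLC8A3, SLC5A12, SLC5A5 and SLC24A3 lie along or near the dashed line, while SLC7A2 and SLC40A1 lie far above the line of equal values.

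Cation-chloride cotransporters set cell volume by moving potassium or sodium with chloride. SLC12A9, an orphan of this family, was at 0.949 RPKM in KG1a, 9.29 in HL60, 15.3 in MonoMac-1 and 19.5 in THP-1, and the lowest of the other lines was 9.79 times KG1a. SLC12A7, which moves potassium out with chloride, was at 28.2 RPKM in KG1a, 8.896 in HL60, 0.0297 in MonoMac-1 and 2.34 in THP-1, highest in KG1a and lowest in MonoMac-1. Of the sodium and proton exchangers, SLC9A9, an endosomal form, was at 1.55 RPKM in KG1a, 0.1203 in HL60, 0.5698 in MonoMac-1 and 0.273 in THP-1, where only KG1a passed 1 RPKM. SLC4A7, which imports bicarbonate with sodium, was at 0.695 RPKM in KG1a, 10.1 in HL60, 5.39 in MonoMac-1 and 4.23 in THP-1. SLC26A8, an anion carrier known from sperm, was at 0.417 RPKM in KG1a, 0.328 in HL60, 9.93 in MonoMac-1 and 0.0752 in THP-1, so MonoMac-1 was 23.8 times the next line.

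Transition metal and heme carriers were the least variable class, with a median range of 0.94, and 20 of 21 members reached 1 RPKM in all 4 lines. None met a 4-fold rule on the log2(RPKM + 1) scale, though SLC40A1 did, as lowest in KG1a, with a pseudocount of 0.1, under quantile normalization and with HL60 left out. SLC39A7, which releases zinc from the endoplasmic reticulum, was at 43.5 RPKM in KG1a, 67.2 in HL60, 80.3 in MonoMac-1 and 70.01 in THP-1. SLC39A8, a zinc and manganese importer, was at 16.8 RPKM in KG1a, 28.9 in HL60, 15.3 in MonoMac-1 and 15.9 in THP-1, highest in HL60. SLC30A1, which exports zinc, was at 5.12 RPKM in KG1a, 5.22 in HL60, 15.2 in MonoMac-1 and 15.2 in THP-1, about 3 times as high in both MLL-AF9 lines as in the others. SLC31A1, the copper importer, was at 10.03 RPKM in KG1a, 8.14 in HL60, 11.5 in MonoMac-1 and 5.55 in THP-1.

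Iron import and export genes differed in their range. SLC11A2, the ferrous iron importer, was at 5.49 RPKM in KG1a, 7.45 in HL60, 5.64 in MonoMac-1 and 3.59 in THP-1. SLC40A1, ferroportin, the iron exporter of macrophages, was the exception to the even class, at 0.0194 RPKM in KG1a, 2.94 in HL60, 16.6 in MonoMac-1 and 4.72 in THP-1, under 0.1 RPKM in KG1a and highest in MonoMac-1. TFRC, the transferrin receptor that works upstream of SLC11A2, was at 54.0 RPKM in KG1a, 243 in HL60, 232 in MonoMac-1 and 60.8 in THP-1, and the ferritin chain FTH1 was at 974 RPKM in KG1a, 140.3 in HL60, 306 in MonoMac-1 and 115 in THP-1, highest in KG1a.

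Among vitamin and cofactor carriers, SLC19A1, the reduced folate carrier that takes up methotrexate, was even, at 26.5 RPKM in KG1a, 32.4 in HL60, 28.2 in MonoMac-1 and 23.96 in THP-1. SLC46A1, a proton-coupled folate carrier, was at 0.00617 RPKM in KG1a, 0.982 in HL60, 3.89 in MonoMac-1 and 2.04 in THP-1, with KG1a lowest. SLC44A1, a choline carrier, was at 34.7 RPKM in KG1a, 9.56 in HL60, 48.6 in MonoMac-1 and 107 in THP-1, and its relative SLC44A2 at 9.47 RPKM in KG1a, 9.704 in HL60, 1.69 in MonoMac-1 and 0.756 in THP-1. The ratio of SLC44A1 to SLC44A2 was 3.66 in KG1a, 0.985 in HL60, 28.8 in MonoMac-1 and 141 in THP-1, so the 2 choline-family genes were level in HL60 alone.

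The remaining classes were small. SLC6A6, the taurine importer, led the neurotransmitter and osmolyte class at 11.6 RPKM in KG1a, 30.9 in HL60, 10.8 in MonoMac-1 and 6.498 in THP-1, and only 3 of its 16 symbols were members. All 6 carriers of nucleotide sugars and acetyl-CoA were members and reached 1 RPKM in every line, led by SLC35A4 at 25.9 RPKM in KG1a, 32.5 in HL60, 51.6 in MonoMac-1 and 27.97 in THP-1. SLC46A3, a lysosomal protein, led the members whose substrate was left unassigned, at 1.73 RPKM in KG1a, 1.11 in HL60, 7.82 in MonoMac-1 and 3.203 in THP-1. SLC16A14, an orphan of the monocarboxylate family in the same class, was at 0.286 RPKM in KG1a, 9.01 in HL60, 0.306 in MonoMac-1 and 0.784 in THP-1, and HL60 was 11.5 times THP-1.

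**Figure D4:**
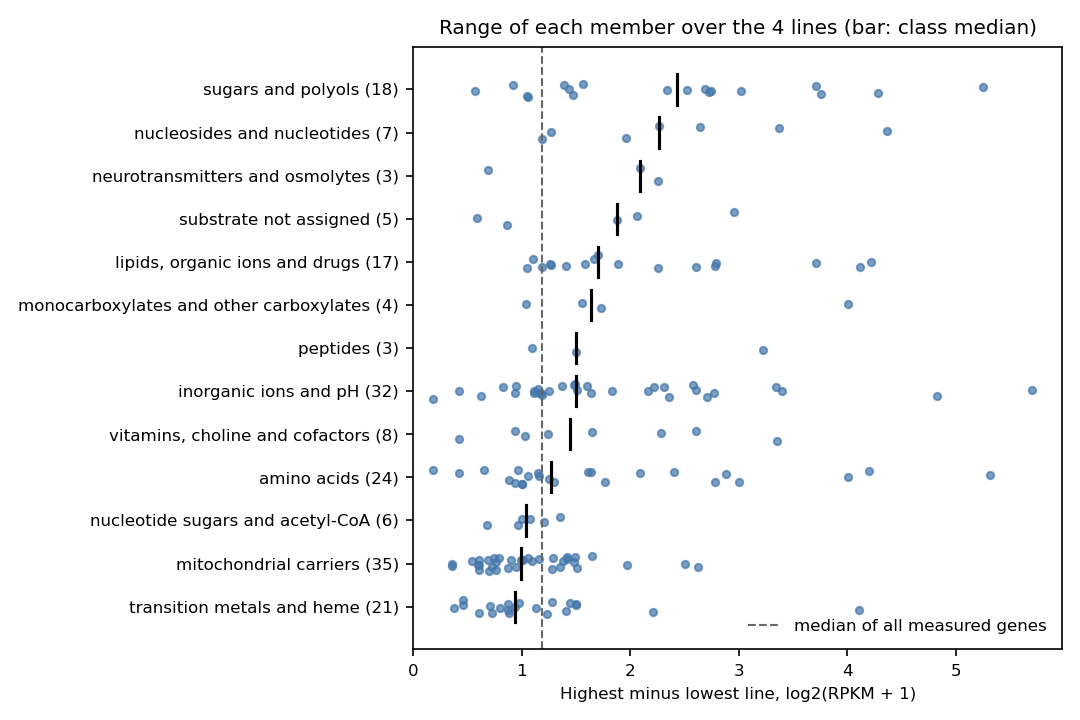
Range of each member over the 4 lines, as the highest minus the lowest log2(RPKM + 1) (horizontal axis), by substrate class with the number of members in brackets; points are genes, black bars class medians, and the dashed line the median of all measured genes at 1.18. Sugar and polyol carriers have the highest median at 2.43, and mitochondrial (0.99) and metal carriers (0.94) the lowest.

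Members with a 4-fold difference were then counted for every line. A gene was counted for a line when its log2(RPKM + 1) was 2 or more above the highest, or below the lowest, of the other 3 lines, and for a pair of lines in the same way, which made 10 rules. By any of them 21 of 183 members (11.5%) were counted, beside 9.68% of measured genes. KG1a was highest for 5 members (2.73%, background 2.82%), HL60 for 3 (1.64%, background 0.455%), MonoMac-1 for 3 (background 1.06%) and THP-1 for 2 (background 1.13%). KG1a was lowest for 3 (background 2.13%), THP-1 and MonoMac-1 for 1 each (background 0.216% and 0.185%), and HL60 for 0 (background 0.57%). With 0 to 5 members per rule these shares rest on few genes. A pseudocount of 0.1 in place of 1 gives values under 1 RPKM more weight. With it KG1a was lowest for 16 members (4.85% of measured genes) and THP-1 highest for 7 (2.59% of measured genes). Members past 4-fold in plain RPKM are named in the text for some rules only. As lowest in KG1a, SLC7A2 (ratio 756), SLC46A1 (159) and SLC40A1 (152) were among further members that passed in plain RPKM. Close to the 4-fold bound lay SLC2A5 as highest in THP-1 and SLC37A1, which fell short under median-of-ratios scaling, and SLC6A9, which fell short under quantile normalization. Leaving out 1 line loosens each rule, since a gene then needs to clear fewer lines. The share of measured genes rises with it and is given in brackets. Without HL60, KG1a was highest for 8 members (3.75%) and lowest for 12 (4.32%). Without KG1a, HL60 was lowest for 7 (2.44%). Without THP-1, MonoMac-1 was highest for 8 (3.2%) and lowest for 3 (0.755%), KG1a was lowest for 5 (2.6%) and HL60 for 1 (1.04%). Without MonoMac-1, THP-1 was highest for 7 (3.2%) and lowest for 3 (0.801%).

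**Figure D5:**
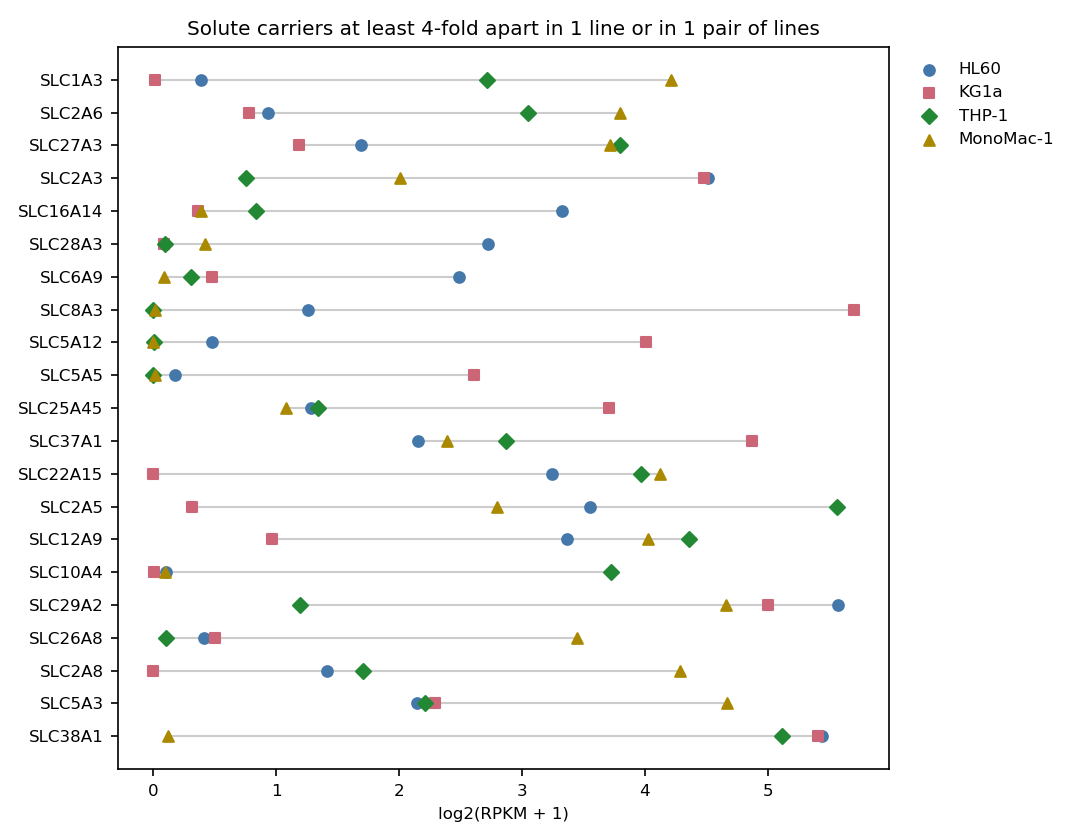
Level of the 21 members that met a 4-fold rule, as log2(RPKM + 1) (horizontal axis), with 1 marker for each cell line and 1 library behind each marker. SLC38A1 shows MonoMac-1 near 0 with the other lines above 5, SLC29A2 shows THP-1 apart on the low side, and SLC8A3 and SLC5A12 show KG1a apart on the high side.

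By a lower bar, HL60 was the highest line for 53 members (29%, against 23.1% of measured genes) and KG1a for 46 (25.1%, against 31%). THP-1 was highest for 30 (16.4%, against 21%) and MonoMac-1 for 54 (29.5%, against 24.9%). KG1a was the only line under 1 RPKM for 14 members (7.65%), where 4% of measured genes had that pattern. The 14 were SLC12A4, SLC12A9, SLC15A3, SLC22A15, SLC22A16, SLC2A5, SLC2A8, SLC40A1, SLC43A2, SLC4A7, SLC7A2, SLC7A7, SLC8A1 and SLC9A7. HL60 was the only line under 1 RPKM for 1 member (background 3.08%), THP-1 for 2 (background 1.26%) and MonoMac-1 for 3 (background 1.19%).

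The question the design puts to these genes is how the lines with MLL-AF9 differ from those without. On the log2(RPKM + 1) scale both MLL-AF9 lines were 4-fold or more higher for SLC1A3, SLC2A6 and SLC27A3. These 3 were 1.64% of members, beside 1.39% of measured genes. Both lines were lower for 1 member, SLC2A3, beside 0.331% of measured genes. In plain RPKM SLC4A3 (ratio 18.1), SLC2A14 (13.4), SLC29A4 (10.4) and SLC22A16 (4.18) were higher by 4-fold as well. No share of measured genes was computed for plain RPKM, so these names are not read as an excess. SLC4A3 and SLC2A14 were under 1 RPKM in THP-1. The counts on the log2(RPKM + 1) scale depended on the lines compared. With HL60 left out they were 12 higher and 8 lower (4.32% and 3.75% of measured genes), and with KG1a left out 7 and 4 (2.44% and 0.894%). They were 7 and 3 (3.2% and 0.801%) with MonoMac-1 left out, and 8 and 3 (3.2% and 0.755%) with THP-1 left out. With the pseudocount of 0.1 they were 6 and 4 (3.35% and 1.09%). Under quantile normalization SLC2A6 and SLC27A3 fell short of the bound, as SLC27A3 did under median-of-ratios scaling. limma, fitted to log2(RPKM + 1) of all 12976 measured genes with the line as the unit and 2 residual degrees of freedom, called 0 members and 0 genes at an adjusted p of 0.05 (two-sided, Benjamini-Hochberg). At an unadjusted p under 0.05 it held 24 members (13.1%), 16 higher and 8 lower in the MLL-AF9 lines, beside 8.55% of measured genes. SLC2A3 had the lowest p of the members, with a difference of -3.12 (SE 0.56, limma adjusted p = 0.263). SLC27A3 had a difference of 2.31 (SE 0.44, limma adjusted p = 0.291), and SLC2A6 of 2.57 (SE 0.50, limma adjusted p = 0.292). SLC1A3 had a difference of 3.26 (SE 0.66, limma adjusted p = 0.309). The choline-family gene SLC44A2 had a difference of -2.29 (SE 0.47, limma adjusted p = 0.313), and the purine carrier SLC43A3 of -1.86 (SE 0.39, limma adjusted p = 0.319). The p-values measure spread between lines, not between cultures of a line.

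Carriers whose symbols follow another pattern were set beside the members. Of 40 listed (the mitochondrial pyruvate carriers, SLCO, SLC35B to SLC35F, MFSD and others) 37 were in the tables and 31 were measured. Among them the 4-fold rules counted KG1a as the lowest line for 4, MFSD2A, MFSD1, MFSD10 and SLCO3A1, and THP-1 as the highest for MFSD2A, rules that 2.13% and 1.13% of measured genes met. MFSD2A, which carries lysophospholipids with omega-3 fatty acids, was at 0.101 RPKM in KG1a, 8.28 in HL60, 13.96 in MonoMac-1 and 130.2 in THP-1. MFSD1, a lysosomal dipeptide carrier, was at 12.3 RPKM in KG1a, 67.3 in HL60, 251 in MonoMac-1 and 128 in THP-1. The mitochondrial pyruvate carrier, listed under its older symbols BRP44L and BRP44, was even, at 33.8 RPKM in KG1a, 40.97 in HL60, 57.6 in MonoMac-1 and 45.3 in THP-1 for the first, and at 66.9 RPKM in KG1a, 38.7 in HL60, 68.9 in MonoMac-1 and 51.1 in THP-1 for the second.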

How the data were processed

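RNA of 4 cell lines was sequenced with 1 library per line. Per the submitters' processing notes CASAVA 1.8.2 and the hg19 build were used; no aligner, gene annotation or strand setting is named in the labels. Per gene, the authors deposited an RPKM and a whole-number coverage signal. The coverage was read from its values as sequenced bases (commonest low value 200), so 200 bases counted as 1 fragment equivalent, and intervals cover counting error only. RPKM cannot be tested with count models. Values were analysed as log2(RPKM + 1), which understates changes of low genes; all 183 members had at least 1 RPKM in 1 line, the filter used. Where a symbol repeated, the entry of highest mean was kept. limma 3.58.1 (R 4.3.3; lmFit, eBayes with trend) compared 2 lines with 2, as 4 samples without replicates. No value has a replicate check. Substrate classes were assigned by hand from general knowledge. Members and lists were chosen with earlier results of these data known. Named are the most abundant member of each class or mitochondrial group, every member meeting a 4-fold rule (up to 10 per rule) and a list of 42 symbols; further members were named after their values were seen. Some members are counted but not reported here by name. Python 3.11.15 with pandas 2.3.3 was used. Promoters are RefSeq's (GRCh38.p14); where several starts are listed the one richest in CG stands for the gene. Genome coordinates of genes are hg19, with starts as listed. Overlapping genes and near-identical copies are uncertain. Alternatives were a pseudocount of 0.1, no filter, 5 RPKM as the minimum, 2 other scalings, HL60 less the KG1a share, and leaving out each line.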

Additional observations from a re-analysis of the deposited data

How the results depend on the processing

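No paired analysis was possible because each line has 1 library and the labels pair no samples. The counts of members past the 4-fold rules depended mainly on the pseudocount and on the lines compared. With a pseudocount of 0.1 in place of 1 the MLL-AF9 lines were both higher for 6 members and both lower for 4. Of measured genes 3.35% and 1.09% met these rules. HL60 was lowest for 1 member (2.23% of measured genes), KG1a lowest for 16 (4.85%), THP-1 highest for 7 (2.59%) and MonoMac-1 lowest for 2 (0.917%). The pseudocount of 0.1 gives more weight to values under 1 RPKM. Median-of-ratios scaling left THP-1 highest for 1 member (SLC2A5 was lost), beside 1.12% of measured genes. Quantile normalization gave 1 member higher (SLC2A6 and SLC27A3 were lost) and 2 lower in both MLL-AF9 lines, beside 1.16% and 0.401% of measured genes. It left THP-1 highest for 1, beside 1.11%. The cause was not tested. Scaling would move the libraries by -0.06 to 0.04 on the log2 scale. Leaving out each line in turn gave 7 to 12 members higher and 3 to 8 lower in the MLL-AF9 lines. Of measured genes 2.44% to 4.32% and 0.755% to 3.75% met these rules. Over these leave-outs HL60 was highest for 3 to 4 (measured genes 0.701% to 0.894%) and lowest for 0 to 7 (1.02% to 2.44%). KG1a was highest for 5 to 8 (3.34% to 3.75%) and lowest for 3 to 12 (2.44% to 4.32%). THP-1 was highest for 2 to 7 (1.36% to 3.2%) and lowest for 1 to 3 (0.424% to 0.801%). MonoMac-1 was highest for 3 to 8 (1.36% to 3.2%) and lowest for 1 to 3 (0.308% to 0.755%). With a minimum of 5 RPKM and with the KG1a share taken off HL60, each count stayed within 1.5 times its value. The 5 RPKM minimum can only remove members, and SLC6A9 was lost as highest in HL60. Without a filter the counts could not change. A gene under 1 RPKM in every line cannot be 2 apart on the log2(RPKM + 1) scale, so that setting says nothing of stability. limma called 0 members with all 4 lines under each pseudocount, filter and scaling tried. It called 0 genes in all but the 5 RPKM minimum, which gave 11. With a filter and all 4 lines, 12.6% to 14.4% of the members tested had an unadjusted limma p under 0.05, beside 8% to 8.85% of genes. Without a filter all 330 symbols were tested, members or not, and 35 (10.6%) were under it, beside 7.59% of genes. Fits without 1 line compare 1 line with 2 and assume that the lone line varies like the others, so their 0 calls say nothing of stability.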
